A study of Homo sapiens with 4 samples.

Results

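The genes described here encode the transforming growth factor beta (TGF-beta) ligands TGFB1 and TGFB2, the receptors TGFBR1, TGFBR2 and TGFBR3, 2 latent TGF-beta binding proteins, LTBP2 and LTBP3, and 3 proteins that hold the signal back, PMEPA1, SKI and SKIL. They were chosen by symbol from the deposited table, 10 of 19205 genes, and each matched 1 row. Polyadenylated RNA was sequenced from LNCaP, a long-established line of human prostate cancer cells that grow in response to androgen, in 2 groups of 2 libraries. The OE group was infected with lentivirus, selected with puromycin and carries HOXD13 overexpression, where HOXD13 is a homeobox transcription factor. The EV group, whose genotype is labelled empty vehicle, has the same infection and selection in its protocol. Whether either group is a clone or a pool, and whether its replicates came from separate cultures, is not given in the sources used here, so the p-values rest on a spread that could be technical.

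TGF-beta is secreted in a latent form, bound to its own propeptide, and in many cells to a latent TGF-beta binding protein that anchors it in the extracellular matrix. Active ligand brings the type II receptor TGFBR2 together with the type I receptor TGFBR1, which phosphorylates SMAD2 and SMAD3, and TGFBR3 (betaglycan) presents ligand, TGFB2 above all, to the signalling receptors. SKI and SKIL (SnoN) are co-repressors on SMAD complexes, and PMEPA1 is a membrane protein that binds SMAD2 and SMAD3 and limits their phosphorylation. PMEPA1 and SKIL are themselves induced by TGF-beta, and PMEPA1 is induced by androgen in prostate cells.

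Total expected counts were 8530487 and 8335067 in OE replicates 1 and 2, and 7662978 and 6881110 in EV replicates 1 and 2. HOXD13 had 88 and 104 counts in the OE libraries and 0 in both EV libraries, at least 55.2-fold higher against a floor of 3 counts over the EV group, a floor that covers counting error only. The chi-square per degree of freedom between replicates was 1.76 in the OE pair and 1.57 in the EV pair, both above sampling noise, and 5.24 to 5.95 between libraries of different groups. The prostate luminal genes KLK2, KLK3, FOLH1, TMPRSS2, HOXB13, KRT8 and KRT18 were expressed in all 4 libraries. Of these KLK2, KLK3, FOLH1 and TMPRSS2 were called higher in OE, KRT8 and KRT18 were not called, and HOXB13 was called lower. The HOXB13 call was lost without EV replicate 1 (edgeR adjusted p = 0.311), without EV replicate 2 (0.0701), with the trends of expression, length and GC content removed (0.0955), and by the DESeq2 Wald test and limma. KLK3, the prostate-specific antigen gene, averaged 3197 ± 81.4 FPKM in OE libraries and 2059 ± 21.5 FPKM in EV libraries (SD, n = 2 each). The fibroblast genes DCN, COL1A2 and PDGFRA, the endothelial gene CDH5, the leukocyte genes CD3E and ITGAM and the basal genes KRT5, TP63 and KRT15 were listed at 0 or absent in all 4 libraries. Other genes of these lists were expressed. LYZ, the lysozyme gene, was at 33.1 and 35.2 FPKM in OE libraries and 30.5 and 29.6 FPKM in EV libraries, and CD68, a lysosomal protein gene of macrophages, at 8.3 and 7.0 FPKM in OE libraries and 9.7 and 6.9 FPKM in EV libraries. COL1A1, a collagen gene of fibroblasts, was at 6.17 and 5.79 FPKM in OE libraries and 6.08 and 6.82 FPKM in EV libraries.

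In these cells PMEPA1, LTBP3 and SKI, which hold back or store TGF-beta, were the most abundant of the 10 genes, while the 2 ligands and the type II receptor TGFBR2 had at most 12 counts in any library. With HOXD13 overexpression 3 of the 10 genes rose, PMEPA1, LTBP3 and LTBP2. In bulk RNA a change in the number of cells that express a gene and a change in RNA per cell cannot be told apart. The other 4 tested genes, SKI, SKIL, TGFBR1 and TGFBR3, did not pass the test, and TGFB1, TGFB2 and TGFBR2 had too few counts to be tested. The test was edgeR's quasi-likelihood test on rounded expected counts over 14112 genes, and a gene was called where its adjusted p (Benjamini-Hochberg) was under 0.05. The test called 16.0% of all tested genes, 7.91% higher and 8.11% lower. The 7 tested genes had a median log2 fold change (OE minus EV) of 0.26, against 0.0038 for all tested genes. Each of the 7 is long, with at least 80.6% of genes shorter. With the trends of expression, length and GC content removed, LTBP2 was at 0.65, SKIL and TGFBR3 at 0.17 and TGFBR1 at 0.002. PMEPA1 was then at 0.33, LTBP3 at 0.29 and SKI at 0.01. The part of gene length in the median was not tested. All 7 log2 fold changes were above 0, except that SKI turned below 0 without EV replicate 1 (-0.01) and TGFBR1 without EV replicate 2 or OE replicate 1 (both -0.02).

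**Figure D1:**
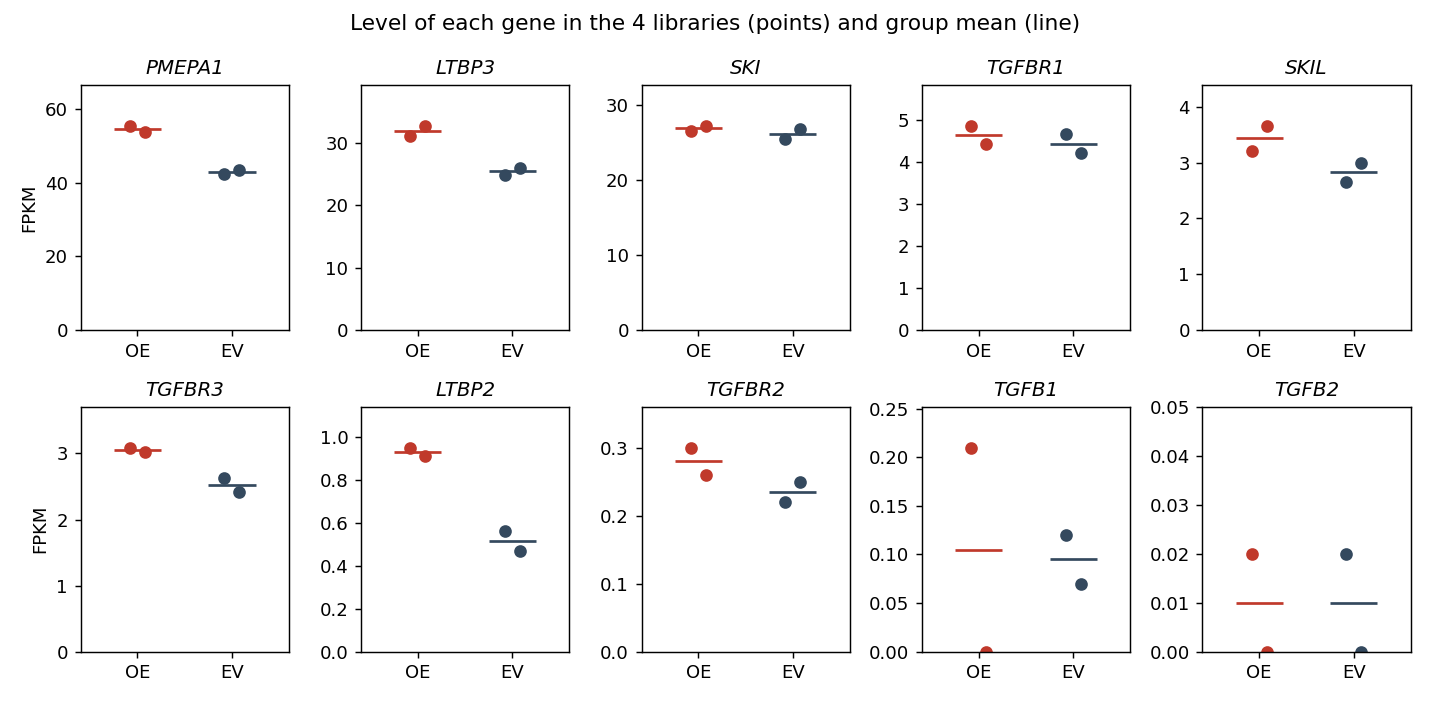
Level in FPKM of each of the 10 genes in every library (points; OE left, EV right), with the group mean as a line and a separate axis from 0 for each gene. Both OE points of PMEPA1, LTBP3 and LTBP2 lie above both EV points, as do those of SKIL, TGFBR3 and TGFBR2, while SKI, TGFBR1, TGFB1 and TGFB2 overlap. Of all tested genes 29.3% show the order of OE above EV. TGFBR2, at 12 and 10 counts in OE libraries and 8 and 8 in EV libraries, had too few counts to be tested.

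The levels, in FPKM (fragments scaled to transcript length and to the depth of the library), spanned a wide range. PMEPA1 had the highest mean over the 4 libraries, 48.7 FPKM, above 91.3% of genes with any signal. LTBP3 (28.7 FPKM) and SKI (26.6 FPKM) followed, and their ranges over libraries overlapped. TGFBR1 stood at 4.55 FPKM, above SKIL (3.13) and TGFBR3 (2.79), whose ranges overlapped with each other. LTBP2 (0.723 FPKM), TGFBR2 (0.258), TGFB1 (0.10) and TGFB2 (0.010) closed the order, the ranges of the 2 ligands overlapping. Of the 10 genes, 9 have transcripts longer than the median of 2646 bases, and LTBP2 is the longest at 8568 bases. In the deposited annotation, the 2 ligands and the 3 receptors carry the function term TGF-beta receptor binding, which 13 genes of the table have, and PMEPA1, LTBP2, LTBP3, SKI and SKIL do not.

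Ligand transcripts were barely detected. TGFB1 (gene ID 7040) had 4 and 0 counts in OE replicates 1 and 2, and 2 and 1 counts in EV replicates 1 and 2. TGFB2 (gene ID 7042) had 1 and 0 counts in the OE libraries and 1 and 0 in the EV libraries. Summed over the OE and EV groups TGFB1 held 4 and 3 counts, and TGFB2 held 1 and 1. No difference was detectable at this depth, and no fold is given. The third ligand gene, TGFB3, was also too low for the test, at 0.260 and 0.300 FPKM in OE libraries and 0.200 and 0.180 FPKM in EV libraries.

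The receptors were unequal in level. TGFBR1 (gene ID 7046), the type I receptor kinase, was at 4.87 and 4.44 FPKM in OE libraries and 4.67 and 4.22 FPKM in EV libraries. The groups overlapped, and the log2 fold change of 0.05 had a 95% interval of -0.17 to 0.27 (adjusted p = 0.817 by edgeR). TGFBR2 (gene ID 7048), the type II receptor without which TGFBR1 is not activated by TGF-beta, had 12 and 10 counts in OE libraries, against 8 and 8 in EV libraries. Summed over the groups that is 22 and 16 counts, a ratio of 1.19 after scaling to the total counts, with an exact 95% interval of 0.595 to 2.42 for counting error only. Such a count leaves changes within that interval unresolved. Within a library TGFBR1 stood 16.2 and 17.1 times above TGFBR2 in OE replicates 1 and 2, and 21.2 and 16.9 times above it in EV replicates 1 and 2. TGFBR3 (gene ID 7049), the co-receptor betaglycan, was at 3.09 and 3.02 FPKM in OE libraries and 2.63 and 2.41 FPKM in EV libraries. Both OE libraries lay above both EV libraries, an order that 29.3% of all tested genes showed. Its log2 fold change of 0.26 had a 95% interval of -0.01 to 0.53 and did not pass the test (adjusted p = 0.204 by edgeR). Among related receptors, ACVR1B, the activin type I receptor that also phosphorylates SMAD2 and SMAD3, was the 1 of 5 tested that rose. Over all tested genes 7.91% were called higher. ACVR1B was at 15.7 ± 1.23 FPKM in OE libraries and 13.4 ± 0.0778 FPKM in EV libraries (SD, n = 2 each). Its log2 fold change was 0.21 (adjusted p = 0.0478 by edgeR). That call was lost without EV replicate 1 (adjusted p = 0.153), EV replicate 2 (0.148) or OE replicate 2 (0.434) and with the trends of expression, length and GC content removed (0.0718), and the DESeq2 Wald test and limma on log2(FPKM + 1) called 0 genes of this list.

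Both latent TGF-beta binding protein genes rose. LTBP3 (gene ID 4054), whose product binds the latent ligand and helps it to be secreted, had 1254 and 1286 counts in OE libraries, against 893 and 843 in EV libraries. In FPKM that is 31.2 and 32.8 in OE libraries and 24.9 and 26.1 in EV libraries, with no overlap. Its log2 fold change was 0.32 (SE 0.0528; fold change 1.25, 95% interval 1.16 to 1.35; adjusted p = 4.69e-05 by edgeR). It was called under all 12 alternatives, with adjusted p from 1.36e-07 to 0.0396. LTBP2 (gene ID 4053), a matrix protein of the same family that does not bind latent TGF-beta covalently, had 70 and 66 counts in OE libraries, against 37 and 28 in EV libraries. At 0.95 and 0.91 FPKM in OE libraries and 0.56 and 0.47 FPKM in EV libraries it was the least abundant gene that was called. Its log2 fold change of 0.84 (SE 0.247; fold change 1.79, 95% interval 1.26 to 2.53; adjusted p = 0.0172 by edgeR) exceeded that of all but 1.64% of tested genes. The LTBP2 call was lost without EV replicate 2 (adjusted p = 0.123), without OE replicate 1 (0.0733) and with the trends of expression, length and GC content removed (log2 fold change 0.65, adjusted p = 0.0799). LTBP3 exceeded LTBP2 by 32.9 and 36.0 times in OE libraries and by 44.4 and 55.4 times in EV libraries. The other 2 family members, named with their values known, did not pass the test: LTBP4 was at 16.7 and 16.0 FPKM in OE libraries and 14.8 and 15.0 FPKM in EV libraries (adjusted p = 0.211 by edgeR), and LTBP1 at 0.500 and 0.540 FPKM in OE libraries and 0.300 and 0.340 FPKM in EV libraries (adjusted p = 0.225).

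PMEPA1 (gene ID 56937) rose with the smallest adjusted p of the 10 genes. It had 2300 and 2187 counts in OE libraries, against 1578 and 1471 in EV libraries. In FPKM that is 55.5 and 53.6 in OE libraries and 42.2 and 43.5 in EV libraries, so that the groups differed by far more than their replicates. Its log2 fold change was 0.33 (SE 0.0424; fold change 1.26, 95% interval 1.18 to 1.33; adjusted p = 9.95e-07 by edgeR), a value that 10.9% of tested genes exceeded. The call held under all 12 alternatives, with log2 fold changes from 0.30 to 0.35 and adjusted p of at most 0.0244. PMEPA1 is both an androgen-induced and a TGF-beta-induced gene. Beside its rise, KLK3 (log2 fold change 0.61) and TMPRSS2 (0.75), which androgen also induces, were higher in OE. The part of that in the PMEPA1 result was not tested.

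The co-repressors SKI and SKIL did not pass the test. SKI (gene ID 6497) was at 26.7 and 27.3 FPKM in OE libraries and 25.6 and 26.8 FPKM in EV libraries. With 1063 to 1311 counts in each library it had the narrowest interval of the uncalled genes, a fold change of 1.02 with a 95% interval of 0.951 to 1.09 (adjusted p = 0.769 by edgeR). SKIL (gene ID 6498) was at 3.21 and 3.66 FPKM in OE libraries and 2.66 and 2.99 FPKM in EV libraries. Both OE libraries lay above both EV libraries, but the fold change of 1.18 had a 95% interval of 0.987 to 1.40 (adjusted p = 0.218 by edgeR). SKIL counts were fractional, and the expected length of its transcripts was 6904 bases in OE replicate 2, against 7198 to 7202 bases in the other 3 libraries. SKI exceeded SKIL by 8.30 and 7.46 times in OE libraries and by 9.62 and 8.96 times in EV libraries. TGFBR3 counts were fractional as well, and those of the 3 called genes were whole.

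**Figure D2:**
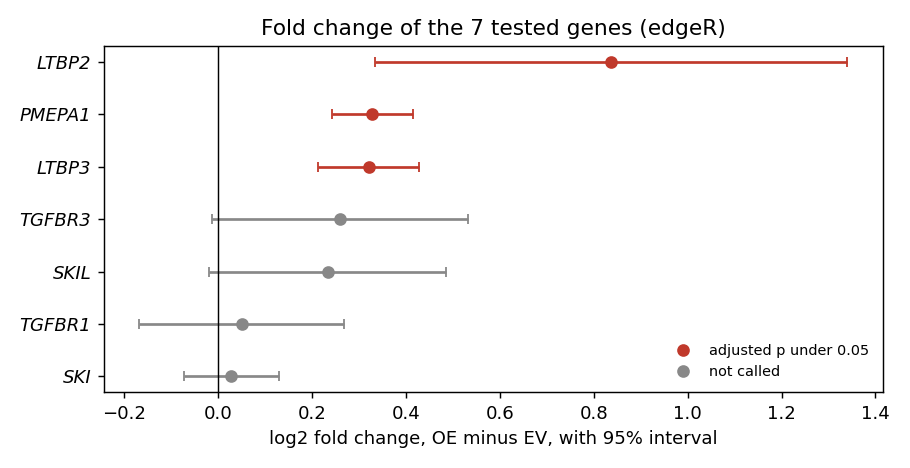
Log2 fold change (OE minus EV) of the 7 tested genes from the edgeR fit, with 95% intervals; red points are called at an adjusted p under 0.05 and grey points are not. The intervals of LTBP2, PMEPA1 and LTBP3 lie above 0, and those of TGFBR3 and SKIL reach just below it, at -0.01 and -0.02.

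The promoters of the 3 genes that rose are shown because these are the genes with a called change. Each sequence is the 250 bases before the RefSeq transcription start (GRCh38.p14), PMEPA1 at chr20:57711473-57711722, LTBP3 at chr11:65558360-65558609 and LTBP2 at chr14:74612238-74612487, all on the minus strand and written 5′ to 3′ along the gene. The bases just after the start were found in a GENCODE transcript for PMEPA1 and LTBP2, but not for LTBP3. The LTBP3 sequence therefore rests on the RefSeq start alone. Capitals mark the Smad box, the core of the DNA element that SMAD3 and SMAD4 bind, searched as AGAC and its complement GTCT.
PMEPA1 promoter: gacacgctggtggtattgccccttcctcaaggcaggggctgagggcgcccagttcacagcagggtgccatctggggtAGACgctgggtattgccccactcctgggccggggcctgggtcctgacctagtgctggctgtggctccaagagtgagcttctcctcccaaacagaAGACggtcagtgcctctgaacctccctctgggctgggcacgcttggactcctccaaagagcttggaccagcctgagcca
LTBP3 promoter: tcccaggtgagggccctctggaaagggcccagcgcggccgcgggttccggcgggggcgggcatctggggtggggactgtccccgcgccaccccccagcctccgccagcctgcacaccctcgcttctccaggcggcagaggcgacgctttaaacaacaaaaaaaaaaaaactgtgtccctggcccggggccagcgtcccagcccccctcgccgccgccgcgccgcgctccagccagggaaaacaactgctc
LTBP2 promoter: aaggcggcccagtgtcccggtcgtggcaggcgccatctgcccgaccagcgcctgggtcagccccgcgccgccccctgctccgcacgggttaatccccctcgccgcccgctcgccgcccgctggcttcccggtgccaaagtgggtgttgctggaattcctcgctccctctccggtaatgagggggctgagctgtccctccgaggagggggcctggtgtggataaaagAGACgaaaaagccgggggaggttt
PMEPA1 holds 2 such boxes, the first base of each 173 and 79 bases before the start, LTBP2 holds 1 at 24 bases before it, and LTBP3 holds 0. The box is short and common, found in 77.5% of the 35116 promoters of the same length in the RefSeq table. None of the 3 holds a HOX13-type motif (CAATAAA or TTTATTG, in 3.66% of all promoters) or an androgen receptor half-site (AGAACA or TGTTCT, in 12.4%). A match or its absence describes letters, not binding. The PMEPA1 promoter was 63.2% G and C with 6 CpG dinucleotides, and those of LTBP3 (70.4%) and LTBP2 (68.8%) had 23 each.

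**Figure D3:**
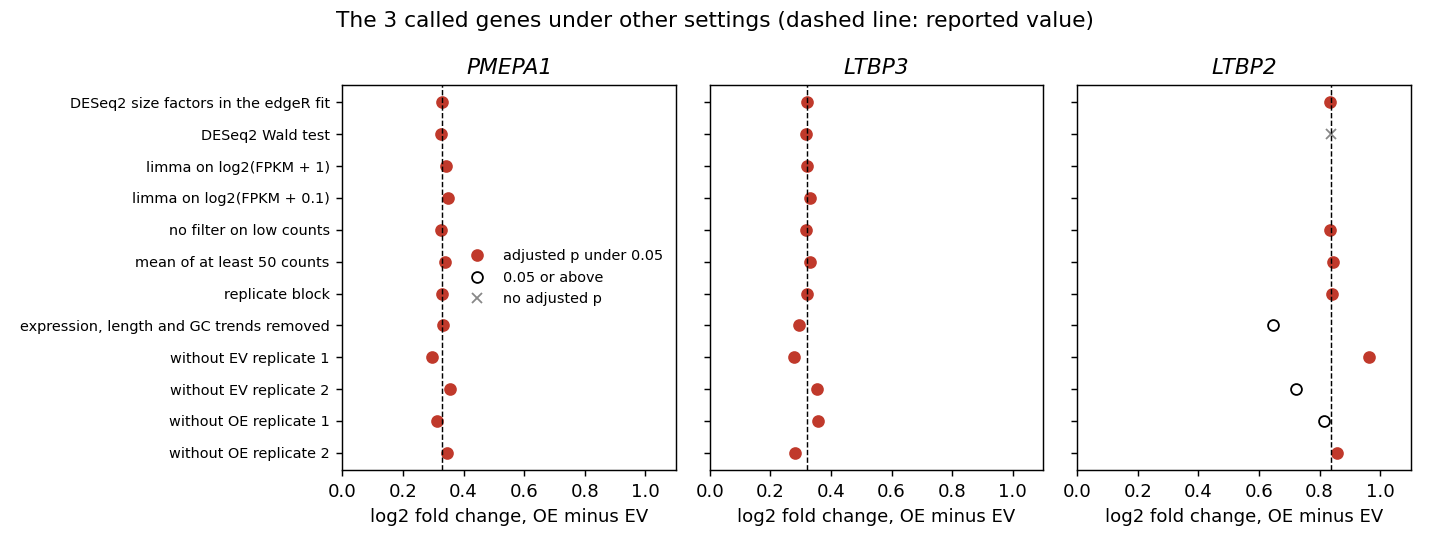
Log2 fold change (OE minus EV) of PMEPA1, LTBP3 and LTBP2 under each alternative setting, against the reported value (dashed line); red points are called, open points are not, and a cross has no adjusted p. PMEPA1 and LTBP3 stay called throughout, and LTBP2 has open points without EV replicate 2, without OE replicate 1 and with trends removed.

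Outside the 10 genes, 72 other genes of the pathway were tested, and 9 of them (12.5%) were called, 2 higher and 7 lower, below the 16.0% called among all genes. Their median log2 fold change was 0.01. The split by direction depended on the setting. With a mean of at least 50 counts required, 5 were called higher and 6 lower. The other alternatives on all 4 libraries called more lower than higher, such as 4 higher and 8 lower with the replicate block. STRAP and FN1 were called under every alternative that tested them, and the other 7 calls were lost under at least 1. The counts of FKBP1A, USP15, NEDD4L, NCOR1 and EP300 were fractional, so some of their reads were shared with other genes. The same holds for the marker genes KLK2, KLK3, FOLH1, KRT8, KRT18, LYZ and CD68. Counts of TMPRSS2 and HOXB13 were whole.

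Of 3 tested ligand genes of the activin branch 0 were called by edgeR and 0 had an unadjusted p under 0.05. GDF11, a ligand close to myostatin, was at 8.99 and 8.39 FPKM in OE libraries and 6.75 and 8.23 FPKM in EV libraries (adjusted p = 0.195 by edgeR), and INHBB, an activin subunit, at 3.23 and 2.78 FPKM in OE libraries and 2.50 and 2.65 FPKM in EV libraries (adjusted p = 0.555). Of 7 tested genes for latency, storage and activation 0 were called, with 2 at an unadjusted p under 0.05, both higher. FURIN, the protease that cleaves the TGF-beta precursor, was at 13.4 and 14.0 FPKM in OE libraries and 10.4 and 12.8 FPKM in EV libraries (adjusted p = 0.0659 by edgeR). ITGAV, the alpha chain of the integrins that release the active ligand, was at 19.6 and 19.7 FPKM in OE libraries, against 17.7 FPKM in both EV libraries (adjusted p = 0.0728). Of 11 transducers and cofactors 0 were called, with 1 higher and 1 lower at an unadjusted p under 0.05. The DESeq2 Wald test and limma on log2(FPKM + 1) also called 0 in each of these 3 lists, but other alternatives called some of their genes. FURIN was called with the replicate block, with either other count filter and without EV replicate 2 (smallest adjusted p = 0.00669), and ITGAV with a mean of at least 50 counts required (0.0441). SMAD3, which carries the signal into the nucleus, was at 2.88 and 3.02 FPKM in OE libraries and 2.35 and 2.25 FPKM in EV libraries (adjusted p = 0.103). The acetyltransferase gene EP300 was at 20.8 and 21.6 FPKM in OE libraries and 23.2 and 22.6 FPKM in EV libraries (adjusted p = 0.0524). It was called lower with DESeq2 size factors, without a count filter, with the replicate block, with trends removed and without OE replicate 2 (smallest adjusted p = 0.00983).

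Among 19 tested regulators of the receptors and SMADs, 1 rose and 3 fell. That is 21.1% called, against 16.0% of all tested genes (7.91% higher and 8.11% lower). The DESeq2 Wald test called 2 of the list and limma on log2(FPKM + 1) called 1. STRAP, a WD-repeat protein that holds SMAD7 at the receptor, fell to 74.7 ± 4.16 FPKM in OE libraries, against 89.0 ± 0.325 FPKM in EV libraries (SD, n = 2 each; log2 fold change -0.27, adjusted p = 0.000238 by edgeR). FKBP1A, the immunophilin that binds the resting type I receptor, fell to 84.9 ± 3.80 FPKM in OE libraries, against 92.7 ± 3.07 FPKM in EV libraries (log2 fold change -0.15, adjusted p = 0.0486). USP15, a deubiquitinase of the receptor complex, fell with a log2 fold change of -0.23 (adjusted p = 0.0301). NEDD4L, a ubiquitin ligase for activated SMAD2 and SMAD3, rose to 37.8 ± 0.0849 FPKM in OE libraries, against 33.3 ± 0.940 FPKM in EV libraries (log2 fold change 0.17, adjusted p = 0.00205). The FKBP1A call was lost without EV replicate 1 (adjusted p = 0.298), EV replicate 2 (0.0880) or OE replicate 1 (0.303), with trends removed (0.239) and with a mean of at least 50 counts required, the USP15 call without EV replicate 2 (0.517, log2 fold change -0.11) or OE replicate 2 (0.0779), and the NEDD4L call without EV replicate 1 (0.0954). Limma called none of these 3 genes, and the DESeq2 Wald test called neither FKBP1A nor USP15. The inhibitory SMAD gene SMAD7, a feedback target like PMEPA1, was named with its values known and was at 3.05 and 3.19 FPKM in OE libraries and 2.62 and 3.42 FPKM in EV libraries, and these overlapped (adjusted p = 0.763).

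Of 6 tested partners and relatives of SKI and SKIL, 3 fell and 0 rose, with 1 higher at an unadjusted p under 0.05. Over all tested genes 8.11% were called lower. The DESeq2 Wald test called 1 of the 6 and limma on log2(FPKM + 1) called 0. HDAC1, a histone deacetylase, fell to 87.2 ± 1.74 FPKM in OE libraries, against 95.6 ± 2.66 FPKM in EV libraries (SD, n = 2 each; log2 fold change -0.15, adjusted p = 0.0243 by edgeR). NCOR1, a nuclear receptor co-repressor that SKI recruits, fell to 30.6 ± 0.127 FPKM in OE libraries, against 33.8 ± 1.24 FPKM in EV libraries (log2 fold change -0.14, adjusted p = 0.0132). SNW1, a transcription and splicing cofactor that binds SKI, had a log2 fold change of -0.25 (adjusted p = 0.0176). The HDAC1 call was lost without EV replicate 2 (adjusted p = 0.234) or OE replicate 1 (0.122) or with trends removed (0.127), the NCOR1 call without EV replicate 2 (0.217) or OE replicate 2 (0.0518), and the SNW1 call without EV replicate 2 (0.0980) or OE replicate 2 (0.223, log2 fold change -0.16) or with trends removed (0.0514).

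Of 21 tested target genes other than the 10 genes above, 0 were called higher (2 at an unadjusted p under 0.05) and 1 lower. That is 4.76% called, against 16.0% of all tested genes. The DESeq2 Wald test and limma on log2(FPKM + 1) each called 1. FN1, the fibronectin gene, fell to 25.2 and 24.4 FPKM in OE libraries, against 29.8 and 30.6 FPKM in EV libraries (log2 fold change -0.29, adjusted p = 6.37e-06 by edgeR). The median log2 fold change of these target genes was 0.05. Among markers of other cell types, 0 of 1 fibroblast gene and 0 of 3 leukocyte genes tested were called by edgeR, with 0 at an unadjusted p under 0.05; LYZ was called higher with trends removed (adjusted p = 0.0484). The endothelial gene VWF, 1 of 3 tested, was higher in OE (log2 fold change 0.52, adjusted p = 0.00195, and up to 0.130 by limma on log2 FPKM), as was the basal keratin gene KRT14, the 1 tested (1.27, adjusted p = 0.00509, and 0.0669 without EV replicate 2). The summed FPKM of the fibroblast list was 6.89 and 6.48 in OE libraries and 6.24 and 7.21 in EV libraries, and that of the endothelial list 4.95 and 5.19 in OE libraries and 3.44 and 3.63 in EV libraries. The leukocyte list summed to 42.3 and 43.8 FPKM in OE libraries and 41.3 and 37.4 FPKM in EV libraries, and the basal list to 3.78 and 3.36 FPKM in OE libraries and 1.67 and 1.24 FPKM in EV libraries. The part of such markers in the LTBP results was not tested.

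**Figure D4:**
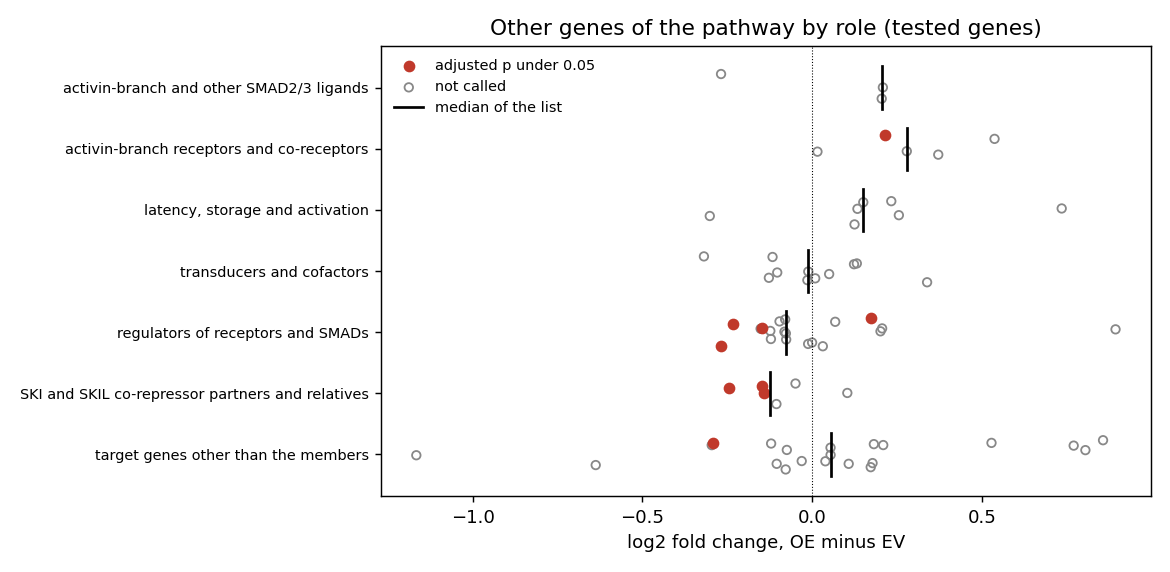
Log2 fold change (OE minus EV) of the tested genes in 7 lists of other pathway genes, ordered by role; red points are called, open grey points are not, and the black bar is the median of each list. The lists of regulators (19 tested) and of co-repressor partners (6 tested) hold 6 of the 7 falls, with medians of -0.08 and -0.12. All lists together hold 72 tested genes, and over all tested genes 8.11% were called lower. Of the falls in these 2 lists, only that of STRAP was called under every alternative that tested it.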

How the data were processed

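The submitters' processing notes name Bowtie2 and RSEM and 2 builds, hg18 and hg19; tool versions, and which build served which step, were not found in the labels. Per the file headers, the authors deposited for each library the RSEM expected counts, the transcript length in bases and the FPKM of every gene; the FPKM in a further table of all libraries were identical. A gene missing from a library was set to 0.

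Expected counts were rounded and tested with edgeR 4.0.16 (R 4.3.3; TMM factors 0.995 to 1.01, filterByExpr, robust quasi-likelihood fit) over 14112 genes with Benjamini-Hochberg adjustment. The SE is the size of the log2 fold change over the square root of F. The steps were tested on simulated data. An exact permutation test was not used, since 2 libraries against 2 cannot reach a p under 0.05.

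Alternatives were DESeq2 1.42.0 (its size factors within edgeR, and its Wald test), limma 3.58.1 on log2(FPKM + 1) or log2(FPKM + 0.1) where 2 libraries reached 1 FPKM, 2 other count filters (any count, or a mean of 50), a replicate block, removed trends (mgcv 1.9.3; GC content from GENCODE for 90.0% of tested genes, the median elsewhere) and each library left out. The genes and lists were chosen with earlier results of these data known. Named besides the 10 genes were HOXD13 and, per list, up to 4 called genes by size of change or, where 0 were called, the 2 with the smallest p. Some genes of the lists are not reported here. Of the 10 genes, 9 were matched in the RefSeq promoter table.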

Additional observations from a re-analysis of the deposited data

How the results depend on the processing

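Among the 10 genes, 3 were called in the reported fit and 2 or 3 under each of the 12 alternatives, the same direction throughout. Of 78 repeated values of single genes, 72 kept their direction and side of the threshold. The LTBP2 call was lost in 3, with adjusted p values given beside the result; limma did not test LTBP2 and the DESeq2 Wald test gave it no adjusted p. The sign turned for SKI without EV replicate 1 and for TGFBR1 without EV replicate 2 or OE replicate 1 (-0.0157), all uncalled; with a library left out the log2 fold change ran from -0.0113 to 0.0610 for SKI and from -0.0179 to 0.122 for TGFBR1. With a library left out the count of called genes among the 10 was 2 to 3, among the other pathway genes 6 to 10 and among all genes 1465 to 1991, against 2260. The DESeq2 Wald test called 1051 of all genes and 4 of the other pathway genes, limma on log2(FPKM + 1) called 659 and 2, and limma on log2(FPKM + 0.1) called 647 and 2. Leaving out a library leaves 1 sample in its group, assumed to vary like the others.

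Same-numbered libraries are not said to share a culture or day, and their deviations correlated at 0.07 across 14112 genes. With the replicate block 2523 genes were called, 12 of the other pathway genes and the same 3 of the 10 (LTBP2 adjusted p = 0.0148). Depth limits TGFB1, TGFB2 and TGFBR2, which held 4 and 3, 1 and 1, and 22 and 16 counts over the OE and EV groups.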
